A study of Mus musculus with 1279 samples.

Results

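The ATP-sensitive potassium channel (KATP channel) is described here through its 4 subunit genes, Kcnj8, Abcc9, Kcnj11 and Abcc8, in single cells of the adult mouse heart. They were chosen by name, as the pore and receptor subunits of this channel, and they are 4 of the 46517 genes in the count table. Full-length Smart-seq2 transcriptomes from adult male mice were deposited, 926 fibroblasts (clusters 1 to 5) and 353 cells of clusters 6 to 8, each cell labelled with 1 of 8 clusters and with the strain of the mouse. Sorting served to enrich cells with PDGFRα, PDGFRβ or a reporter and to leave out CD31-positive endothelial cells. Cell types were assigned afterwards by clustering, once cells without Pdgfra and Pdgfrb had been removed, and they comprise fibroblasts and mural cells, the cells that wrap blood vessels. C57BL6 cells (581, 45.4% of all) came from mice without a reporter and were sorted with antibodies to PDGFRα or PDGFRβ. PdgfrbGFP cells (364, 28.5%) carried GFP under regulatory sequences of Pdgfrb, Cspg4dsRED cells (12.7%) carried dsRED under those of Cspg4, and Acta2GFP cells (13.4%) carried GFP under those of Acta2, all on a C57Bl6/J background. A reporter marks every cell in which its regulatory sequence is active, so the strains differ in the cells they could yield. The Acta2GFP hearts were also dissociated with elastase in the buffer. Between strains, strain, dissociation, sort and sequencing plate cannot be told apart, since each reporter strain was on 1 plate. C57BL6 cells alone were on more than 1 plate.

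A KATP channel is built from pore-forming inward rectifier subunits, Kir6.1 (Kcnj8) or Kir6.2 (Kcnj11), and regulatory sulfonylurea receptors, SUR2 (Abcc9) or SUR1 (Abcc8). The channel closes when ATP is plentiful and opens when the ratio of ADP to ATP rises, so it links the metabolic state of a cell to its membrane potential. In vascular mural cells its opening hyperpolarises the membrane and favours relaxation, Kir6.2 with SUR2 is the pair known from heart muscle, and Kir6.2 with SUR1 is the pair known from insulin-secreting cells.

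The 2 genes that were read in these cells are neighbours. Kcnj8 (ENSMUSG00000030247) spans bases 142564837 to 142571614 of chromosome 6 on the minus strand of GRCm38, and Abcc9 (ENSMUSG00000030249) spans 142587862 to 142702315 on the same strand, 16247 bases away. Their promoters, from 250 bases before to 50 bases after the RefSeq start (GRCm38.p6, minus strand), are printed because both genes were highest in the same cluster. They lie at chr6:142571565-142571864 and chr6:142702225-142702524. Capitals mark matches to the motifs searched on both strands.
Kcnj8: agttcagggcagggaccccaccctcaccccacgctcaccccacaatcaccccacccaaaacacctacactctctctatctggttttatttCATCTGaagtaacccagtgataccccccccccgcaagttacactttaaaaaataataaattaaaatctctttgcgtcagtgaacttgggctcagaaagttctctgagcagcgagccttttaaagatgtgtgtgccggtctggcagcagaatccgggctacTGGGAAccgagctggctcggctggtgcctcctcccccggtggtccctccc
Abcc9: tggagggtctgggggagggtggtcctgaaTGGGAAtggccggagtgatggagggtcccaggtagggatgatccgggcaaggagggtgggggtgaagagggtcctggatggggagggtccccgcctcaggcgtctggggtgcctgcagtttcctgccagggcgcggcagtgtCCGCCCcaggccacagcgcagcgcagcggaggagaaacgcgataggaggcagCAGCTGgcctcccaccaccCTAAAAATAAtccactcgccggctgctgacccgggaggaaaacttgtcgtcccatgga
The Kcnj8 promoter held TGGGAA, the core letters bound by the Notch effector RBPJ, at its start (offset 0), and an E-box (CANNTG) at -160. The Abcc9 promoter held TGGGAA at -221, a GC box (GGGCGG) read on the reverse strand at -79, an E-box at -27 and a MEF2 match at -8. No CArG box, the site of serum response factor, and neither TATAAA nor CCAAT was matched in either. Of 32851 RefSeq promoters of the same length, 25.6% held TGGGAA, 72.3% CANNTG, 35.7% GGGCGG, 3.19% the MEF2 motif and 1.63% a CArG box. The promoters differed in base composition, with a GC content of 53.3% and 9 CpG sites for Kcnj8 (percentile 51.4 of all promoters by GC content) and 65.7% and 16 CpG sites for Abcc9 (percentile 83.01). These matches are letters in a window and no binding was measured. Kcnj11 (ENSMUSG00000096146, chromosome 7, 46093953 to 46100764) and Abcc8 (ENSMUSG00000040136, chromosome 7, 46104523 to 46180033) are neighbours too, both on the minus strand and 3758 bases apart.

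The cells held 46268 to 1302397 counts each, with a median of 274504, and counts were summed over the cells of a cluster within a strain wherever at least 3 cells were present, which gave 27 sums. Levels are given in CPM, the counts of a gene scaled to 1000000 counts of the sum. The labels do not name the animals, so the strain served as the replicate, and errors and p-values measure spread between strains and not between animals. In edgeR the spread of each gene is also drawn towards that of the other genes tested. A very small p is therefore not a measure of that 1 gene's agreement over strains. The labelled clusters were checked against marker genes. Cluster 8 (15.3% of all cells) had the highest pericyte marker sum within each strain, 20437 to 26912 CPM in 3 strains and 10429 CPM in Acta2GFP, over Rgs5, Cspg4, Pdgfrb, Higd1b, Ndufa4l2, Vtn, Steap4 and Notch3. Its smooth muscle marker sums were 472 to 5302 CPM, against 12536 to 20284 CPM in cluster 7 and 13813 to 16429 CPM in cluster 6. Cluster 8 is therefore called pericyte-like and clusters 6 (39 cells) and 7 (9.23% of all cells) smooth-muscle-like, while clusters 1 to 5 were fibroblasts by their markers. The 3 C57BL6 cells of cluster 6 went against that name, with a fibroblast marker sum of 20007 CPM above their smooth muscle sum of 13813 CPM. The comparison of cluster 8 with cluster 6 is therefore also given without them. Cluster 7 was not free of pericyte markers, at 5214 to 13850 CPM, the highest in PdgfrbGFP and above that of Acta2GFP cluster 8, and Pdgfrb, Cspg4 and Acta2 also drove the sort.

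Kcnj8, the Kir6.1 pore, was read in the pericyte-like cluster at 5132 CPM in C57BL6, 6605 CPM in PdgfrbGFP, 4063 CPM in Cspg4dsRED and 665 CPM in Acta2GFP, a mean of 4116 ± 2526 CPM (SD, n = 4 strains). No sum of any other cluster with 3 or more cells exceeded 243.9 CPM, so cluster 8 did not overlap with the rest. Cluster 8 held 92.2% of all 208201 Kcnj8 counts in 15.3% of the cells.
Abcc9, the SUR2 receptor, was read there at 2401, 2354, 4228 and 713 CPM in the same order of strains, a mean of 2424 ± 1436 CPM (SD, n = 4). Its highest level in a sum of another cluster was 163.1 CPM, again without overlap, and cluster 8 held 88.3% of all 106782 Abcc9 counts. A sum cannot tell more expressing cells from more RNA per cell, and values of single cells are given further on.

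The order of clusters by mean Kcnj8 level was cluster 8, then cluster 6 (104.2 ± 122.4 CPM, n = 3), cluster 3 (70.3 ± 37.3 CPM, n = 3), cluster 7 (56.98 ± 7.17 CPM, n = 3), cluster 1 (47.6 ± 48.4 CPM, n = 4), cluster 5 (42.3 ± 13.1 CPM, n = 2) and clusters 2 and 4, at 31.7 ± 31.2 and 31.7 ± 30.4 CPM (n = 4 each). Below cluster 8 every neighbouring pair in this order overlapped in its range over strains. The cluster 6 mean rested on 1 of the 3 C57BL6 cells, which stood at 550 CPM and held 96.8% of the Kcnj8 counts in their sum of 243.9 CPM. Without it the other C57BL6 cells gave 13.7 CPM, beside 52.4 CPM in the 33 Cspg4dsRED cells and 16.2 CPM in the 3 Acta2GFP cells. The fibroblast marker sum of these 3 cells was 20007 CPM, against 4768 CPM in Cspg4dsRED and 5363 CPM in Acta2GFP, and its part in the Kcnj8 level was not tested.
For Abcc9 the order was cluster 8, cluster 3 (136.8 ± 36.9 CPM, n = 3), cluster 7 (52.1 ± 64.1 CPM, n = 3), cluster 1 (46.2 ± 54.5 CPM, n = 4), cluster 4 (38.8 ± 22.7 CPM, n = 4), cluster 6 (3.92 to 39.2 CPM, n = 3), cluster 2 (15.9 ± 7.30 CPM, n = 4) and cluster 5 (14.1 ± 3.16 CPM, n = 2). Fibroblast cluster 3 stood at 94.6 CPM in C57BL6, 152.6 CPM in PdgfrbGFP and 163.1 CPM in Acta2GFP. Those sums lay above every sum of clusters 2, 4, 5 and 6, but the PdgfrbGFP one rested on 1 of 7 cells, at 802 CPM. Without that cell PdgfrbGFP stood at 9.04 CPM, and cluster 3 overlapped with those clusters too. The Acta2GFP sum had 62.3% of its counts in 1 of 14 cells, at 939 CPM, and was 69.03 CPM without it. The cluster 7 mean rested on 1 of 9 PdgfrbGFP cells, which stood at 1109 CPM and held 89.5% of the Abcc9 counts in their sum of 126.1 CPM. Without it that sum was 14.8 CPM, beside 17.6 CPM in Cspg4dsRED and 12.6 CPM in Acta2GFP.
Such single cells were common at these low levels. Of the 23 sums of clusters 1 to 7, 5 had over 50% of their Kcnj8 counts and 7 over 50% of their Abcc9 counts in 1 cell, and no sum of cluster 8 did. Leaving out the cell with the most counts in each sum, a choice made after the data were seen, left cluster 8 at 550 to 6582 CPM for Kcnj8 and 486 to 4012 CPM for Abcc9. The order below cluster 8 was not firm. For Kcnj8 it became clusters 3 (52.2 CPM), 7 (45.7 CPM), 5 (33.2 CPM), 2 (22.8 CPM), 6 (21.2 CPM), 1 (20.7 CPM) and 4 (19.5 CPM). For Abcc9 it became clusters 3 (53.7 CPM), 1 (26.6 CPM), 4 (26.3 CPM), 6 (12.3 CPM), 7 (12.1 CPM), 2 (8.48 CPM) and 5 (7.16 CPM).

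**Figure D1:**
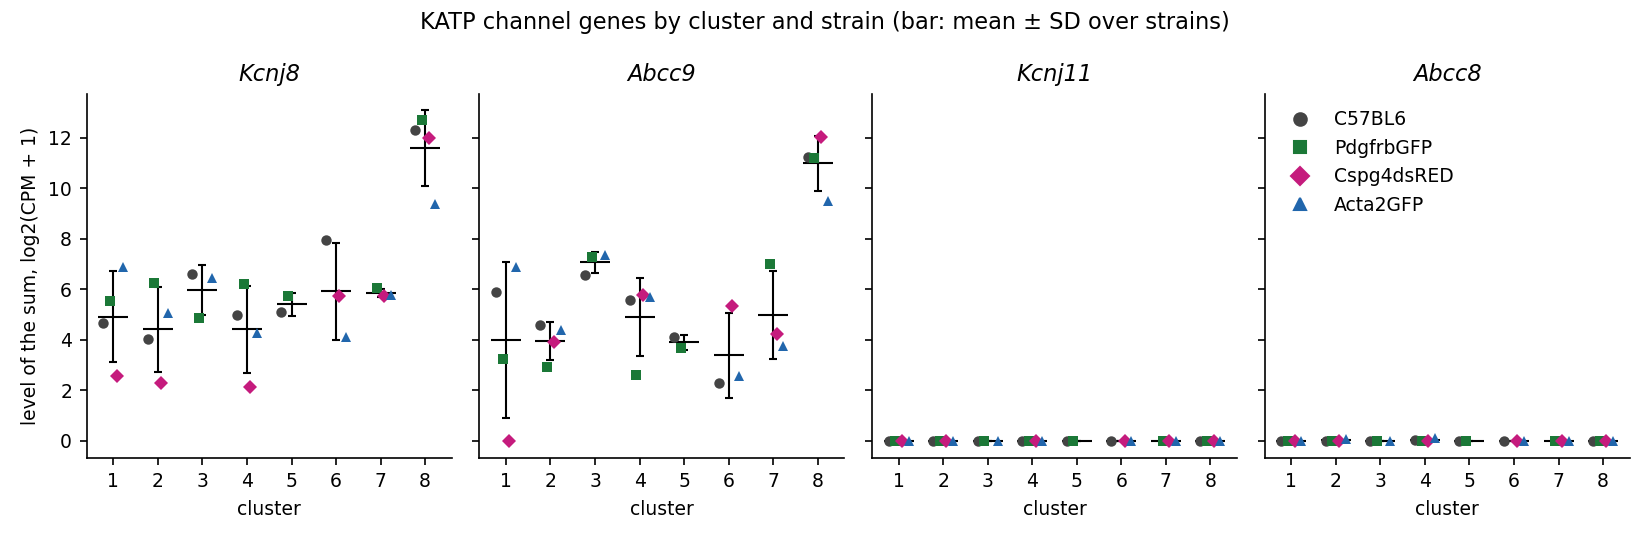
Kcnj8, Abcc9, Kcnj11 and Abcc8 level as log2(CPM + 1) for each cluster, with 1 point per strain and bars of the mean ± SD over strains. In cluster 8 the points lie at 665 to 6605 CPM for Kcnj8 and 713 to 4228 CPM for Abcc9, above every other cluster, and the lowest is Acta2GFP.

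Kcnj11, the Kir6.2 pore, had 0 counts in all cells of the 8 clusters, which allows a level of up to 0.00784 CPM over all 382524585 counts and a share of up to 0.235% of cells with a count. Abcc8, the SUR1 receptor, had 3 counts in 3 fibroblasts, of Acta2GFP clusters 2 and 4 and C57BL6 cluster 4, and 0 in clusters 6, 7 and 8. Over all cells of cluster 8 a count of 0 allows up to 0.0764 CPM. Per kilobase of exon, Kcnj8 stood at 1917 CPM per kb over the pooled cluster 8 cells, at least 92297-fold higher than Kcnj11 against a floor of 3 counts over the cluster. Abcc9 stood at 286.8 CPM per kb, at least 30380-fold higher than Abcc8 on the same floor. Both bounds hold for the pooled cells only, of which 60.7% were PdgfrbGFP, and not for each strain. In Acta2GFP a floor of 3 counts stood at 0.448 CPM, beside 665 CPM of Kcnj8 and 713 CPM of Abcc9. Both bounds are therefore lower in that strain. No cell of cluster 8 with counts of both pore types or of both receptor types was therefore observed. Intervals and floors cover counting error only, since the protocol had no molecular identifiers.

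Compared per kilobase of exon, the pore exceeded the receptor in every strain of cluster 8. Kcnj8 stood at 1616 ± 991 CPM per kb and Abcc9 at 289.5 ± 171.5 CPM per kb (SD, n = 4). The ratio stood at 7.02 in C57BL6 and 9.22 in PdgfrbGFP, and at 3.16 in Cspg4dsRED and 3.06 in Acta2GFP. In CPM, without division by exon length, it was 2.14, 2.81, 0.961 and 0.932 in the same order of strains. The receptor thus stood above the pore in CPM in Cspg4dsRED and Acta2GFP, and the direction there depended on that division. In clusters 2 to 5 the ratio was 3.23, 15.6, 3.29 and 2.12, a range that overlapped with that of cluster 8. The Cspg4dsRED fibroblast ratio rested on 1 cell and was 0.332 without it, with the receptor above the pore. The Abcc9 exons are also covered by a gene on the opposite strand, 5330439B14Rik (142614595 to 142626462), and strand use in the counting was not stated. That gene had 812 counts in all and 21.7 ± 26.2 CPM in cluster 8. Of the 50-base stretches of Abcc9 transcripts, 1.95% occurred in another gene, and none of Kcnj8, Kcnj11 or Abcc8.

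The first comparison asked how the pericyte-like cluster differed from the smooth-muscle-like cluster 7, in the 3 strains that had both. Kcnj8 was higher in cluster 8 in each of them, at 6605 against 65.3 CPM in PdgfrbGFP, 4063 against 52.6 CPM in Cspg4dsRED and 665 against 53.1 CPM in Acta2GFP. Its log2 fold change was 5.94 (SE 0.75, adjusted p = 0.0124, edgeR quasi-likelihood test with Benjamini-Hochberg adjustment). It missed the threshold with scaling to ERCC spike-in counts (5.18, adjusted p = 0.144, edgeR) and with limma-voom (6.31, adjusted p = 0.322). Of 11867 genes tested, 23 passed (0.194%), 10 of them higher in cluster 8 (0.0843%) and 13 lower (0.110%), and Kcnj8 was at place 75 of all genes tested by the size of the increase. Without PdgfrbGFP 0 genes passed in edgeR (11.8% of the genes tested had an unadjusted p under 0.05, and DESeq2 with all strains called 380), and Kcnj8 stood at 5.47 (adjusted p = 0.230). Without Cspg4dsRED 0.112% of the genes tested passed, and without Acta2GFP 0.987%.
Abcc9 was higher in cluster 8 in each strain too, at 2354 against 126.1 CPM in PdgfrbGFP, 4228 against 17.6 CPM in Cspg4dsRED and 713 against 12.6 CPM in Acta2GFP. Its log2 fold change was 5.31 (SE 1.01) and missed the threshold (adjusted p = 0.0681, edgeR). With strain as a block the value was 5.91 (SE 0.69, adjusted p = 0.00324, edgeR), with 82 genes (0.691%) past the threshold. Without Acta2GFP, with 2 strains a side, it was 5.23 (SE 0.59, adjusted p = 3.15e-15, edgeR). It missed the threshold without PdgfrbGFP (7.33, adjusted p = 0.183, edgeR) and without Cspg4dsRED (4.24, adjusted p = 0.0693, edgeR). Abcc9 passed in 5 of 12 alternatives. The within-strain ratios did not keep 1 order between the genes, since Kcnj8 was 101.2-, 77.3- and 12.5-fold and Abcc9 18.7-, 240- and 56.5-fold higher in PdgfrbGFP, Cspg4dsRED and Acta2GFP. Without the 1 cluster 7 cell at 1109 CPM the PdgfrbGFP ratio of Abcc9 was 159.6-fold.

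Cluster 6 gave the second comparison, in C57BL6, Cspg4dsRED and Acta2GFP, where 2 of the 3 strains had only 3 cells in cluster 6. Kcnj8 stood at 3287 ± 2333 CPM in cluster 8 and 104.2 ± 122.4 CPM in cluster 6, which is a log2 fold change of 5.11 (SE 0.91, adjusted p = 0.0407, edgeR). Abcc9 stood at 2447 ± 1758 CPM in cluster 8 and at 3.92, 39.2 and 4.86 CPM in cluster 6 of the 3 strains, with a log2 fold change of 7.18 (SE 1.03, adjusted p = 0.0103, edgeR). Both were higher in cluster 8 in 3 of 3 strains, by 21.04-, 77.6- and 41.1-fold for Kcnj8 and 613-, 107.8- and 146.8-fold for Abcc9. Without the 1 C57BL6 cell at 550 CPM the first of these Kcnj8 ratios was 374-fold. Of 10812 genes tested, 17 passed (0.157%), 15 of them higher (0.139%) and 2 lower (0.0185%), and with strain as a block 1.43% passed. Without C57BL6 both passed, at 6.20 (adjusted p = 0.0153) for Kcnj8 and 6.92 (adjusted p = 0.0216) for Abcc9 (edgeR). Without Cspg4dsRED neither gene passed, at 4.48 (adjusted p = 0.508) for Kcnj8 and 8.40 (adjusted p = 0.0738) for Abcc9 (edgeR). That fit left 1 gene past the threshold (0.0103%), against 0.397% of genes without C57BL6 and 1.63% without Acta2GFP. With scaling to ERCC spike-in counts neither member passed (adjusted p = 0.252 for Kcnj8 and 0.145 for Abcc9, edgeR). With limma-voom neither did so (adjusted p = 0.785 and 0.692).

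The third comparison set cluster 8 against the fibroblasts of clusters 2 to 5 in all 4 strains. Kcnj8 was read at 37.99, 63.1, 60.97 and 33.96 CPM in the fibroblasts of C57BL6, PdgfrbGFP, Cspg4dsRED and Acta2GFP, a mean of 49.02 ± 15.2 CPM. The Cspg4dsRED value rested on 1 of 23 cells, which held 562 of 594 counts (777 CPM), and without it was 3.55 CPM. Abcc9 was read at 38.7, 13.3, 60.97 and 52.6 CPM, a mean of 41.4 ± 20.9 CPM. Without the 1 cell with the most Abcc9 counts, PdgfrbGFP stood at 8.44 CPM and Cspg4dsRED at 35.2 CPM. Both were higher in cluster 8 in 4 of 4 strains. Kcnj8 rose by a log2 fold change of 6.48 (SE 0.69) and Abcc9 by 5.97 (SE 0.64), each at an adjusted p of 0.000586 (edgeR). Of 13445 genes 887 passed (6.60%), 314 of them higher (2.34%) and 573 lower (4.26%), and the share was 3.75% with strain as a block. It was 1.47% without C57BL6, 1.74% without PdgfrbGFP and 2.50% without Cspg4dsRED, while Kcnj8 and Abcc9 passed in every one of the 14 alternatives run for this comparison. Among these, a minimum of 5 cells per sum left out no sum and repeated the main fit. The smallest within-strain ratios were those of Acta2GFP, 19.6-fold for Kcnj8 and 13.6-fold for Abcc9, against 66.6- to 135.1-fold and 62.1- to 177.4-fold in the other strains. The lowest of the latter for Kcnj8, in Cspg4dsRED, was 1145-fold without that 1 cell, and for Abcc9 the ratios without 1 cell were 278.9-fold in PdgfrbGFP and 120.3-fold in Cspg4dsRED.

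Cluster 7 was not shown to differ from the same fibroblasts in either gene. The log2 fold change was 0.23 (SE 0.84, adjusted p = 0.965) for Kcnj8 and 0.53 (SE 1.17, adjusted p = 0.933) for Abcc9 (edgeR). The strains did not share 1 direction for Abcc9, at 9.50 times the fibroblast level in PdgfrbGFP but 0.288 and 0.240 times in Cspg4dsRED and Acta2GFP, and the PdgfrbGFP value rested on the 1 cell at 1109 CPM. For Kcnj8 the ratios were 1.03, 0.862 and 1.56. Scaling to ERCC spike-in counts moved the median of all genes from -0.18 to -0.76, and relative to it Kcnj8 went from 0.41 to 0.34 and Abcc9 from 0.71 to -0.30. The sign of Abcc9 also turned with strain as a block and without PdgfrbGFP. Of 13628 genes 616 passed (4.52%), with 1.93% higher and 2.59% lower, and 1.03% passed without Cspg4dsRED and 2.54% without Acta2GFP. These comparisons share the cluster 8 sums or the fibroblast sums, so they are not independent of each other. The clusters were also made from the same counts, so p-values are no independent evidence for genes that took part in the clustering. Scaling to ERCC counts moved the median log2 fold change of all genes from 0.18 to -0.25 against cluster 7, from 0.35 to -0.67 against cluster 6 and from 0.12 to -0.93 against fibroblasts. Relative to those medians the members' differences kept their sign in all 3 comparisons of cluster 8. The share of higher genes among those past the threshold moved with the scaling, from 43.5% to 26.7% with RLE size factors against cluster 7. Against cluster 6 it moved from 88.2% to 58.3% (RLE) and 33.3% (ERCC), against fibroblasts from 35.4% to 12.2% (ERCC), and for cluster 7 against fibroblasts from 42.7% to 25.96% (ERCC).

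**Figure D2:**
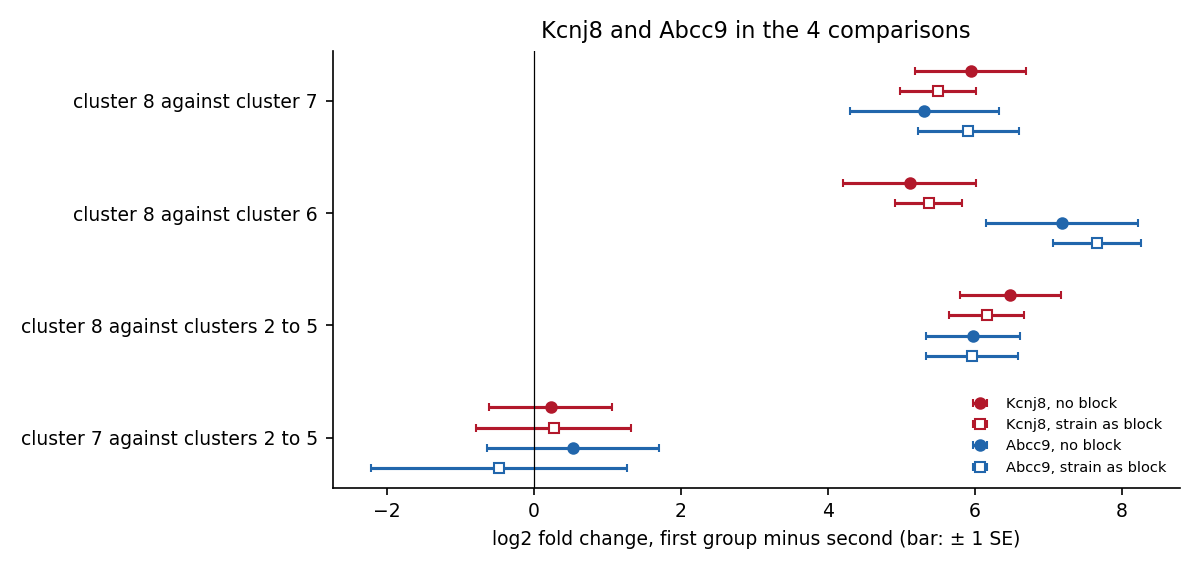
Log2 fold changes of Kcnj8 and Abcc9 in the 4 comparisons of clusters, with bars of 1 SE from edgeR, without a block (filled) and with strain as a block (open). Without a block the 3 comparisons of cluster 8 lie between 5.11 and 7.18, and cluster 7 against fibroblasts lies at 0.23 and 0.53, within 1 SE of 0. With the block the former lie between 5.37 and 7.66 and the latter at 0.27 for Kcnj8 and -0.47 for Abcc9.

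In single cells, all cells of cluster 8 but 2 had a Kcnj8 count, and all but 2 had an Abcc9 count (98.98% each). Kcnj8 was found in every C57BL6 (33 of 33), PdgfrbGFP (100%) and Cspg4dsRED (29 of 29) cell and in 13 of 15 Acta2GFP cells. Its lowest, median and highest value per cell was 892, 5468 and 9312 CPM in C57BL6, 73.5, 6738 and 19103 CPM in PdgfrbGFP, and 860, 4584 and 8161 CPM in Cspg4dsRED. In Acta2GFP it was 0, 9.82 and 3772 CPM, so the cells of that strain ran from none to the levels of the others.
Abcc9 per cell was 6.60, 2075 and 5937 CPM in C57BL6, 0, 2047 and 9431 CPM in PdgfrbGFP, 1194, 4912 and 9805 CPM in Cspg4dsRED and 1.55, 513 and 3968 CPM in Acta2GFP. Set at 100 CPM or more, 80.6% of the cells of cluster 8 had both genes, 29 cells had Kcnj8 only, 2 had Abcc9 only and 7 had neither. Of the 29 cells with Kcnj8 only, 25 were PdgfrbGFP, 3 C57BL6 and 1 Acta2GFP, and all 29 Cspg4dsRED cells had both. Of the 15 Acta2GFP cells 6 had both, 1 Kcnj8 only, 2 Abcc9 only and 6 neither.

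Marker genes of other cell types were read in the same sums. Acta2GFP, the strain with the lowest members in cluster 8, also had the lowest pericyte marker sum there (10429 CPM), the highest smooth muscle marker sum (5302 CPM, against 472 to 1808 CPM) and the highest fibroblast marker sum (6846 CPM, against 1632 to 2799 CPM). Cnn1 and Actg2, both smooth muscle genes, were at 0 in cluster 8 of C57BL6 and PdgfrbGFP and above 0 in the other 2 strains. Their part in the lower Kcnj8 and Abcc9 levels was not tested. Endothelial marker sums in cluster 8 were 4.34 to 85.7 CPM, immune sums 0 to 38.2 CPM and Schwann sums 0 to 5.70 CPM.
Cardiac muscle marker sums differed between clusters and between strains. They were 153.6 to 346 CPM in cluster 8 and 273.6 to 740 CPM in cluster 7, against 24.7 to 115.6 CPM in clusters 2 to 5. In cluster 6 they ran from 6.86 to 1529 CPM. In fibroblast cluster 1 they ran from 34.93 to 364 CPM, and the highest, in C57BL6, was above the 283.3 CPM of C57BL6 cluster 8. All 9 cardiac markers had a log2 fold change above 0 in cluster 8 against fibroblasts, with a median of 1.98 beside 0.12 for all genes. Of these, 4 had an unadjusted p under 0.05, and the lowest adjusted p was 0.157 (Myl3, edgeR). Kcnj11, the pore known from heart muscle, was at 0 in these sums, and the part of heart muscle RNA in the Abcc9 level was not tested.
Depth and library measures moved with the groups too. The median cell of cluster 8 had 6896 genes in Acta2GFP and 2782 to 3610 in the other strains, and Acta2GFP fibroblasts of clusters 2 to 4 had 6110.5 to 6566.5. In the other 3 strains the median cluster 8 cell held 143791 to 215419 counts, with 2.16 to 3.28% mitochondrial and 2.97 to 4.77% ERCC spike-in counts. In the fibroblast clusters 2 to 5 of those strains, where at least 3 cells were present, the medians were 258408 to 461777.5 counts, 1.08 to 1.79% and 1.19 to 2.22%. The part of these measures in the member levels was not tested.
Across the cells of cluster 8, Kcnj8 rank correlated with the pericyte marker sum at 0.50 in C57BL6 (n = 33), 0.14 in PdgfrbGFP (60.7% of the cluster's cells), 0.29 in Cspg4dsRED (n = 29) and 0.76 in Acta2GFP (n = 15). For Abcc9 the values were 0.23, 0.12, 0.58 and 0.60. With the smooth muscle marker sum all 8 values were below 0, from -0.04 to -0.34. With the endothelial marker sum the values in Acta2GFP were 0.56 for Kcnj8 and 0.64 for Abcc9, and in the other strains they ran from -0.31 to 0.14. With the fibroblast marker sum Kcnj8 stood at -0.57 in Acta2GFP, and the other values ran from -0.28 to 0.14. With depth the lowest values were those of Cspg4dsRED, -0.49 for Kcnj8 and -0.43 for Abcc9. Kcnj8 and Abcc9 correlated with each other at 0.50, 0.03, 0.23 and 0.51. These cells share strain, plate and depth, and the values describe the libraries.

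**Figure D3:**
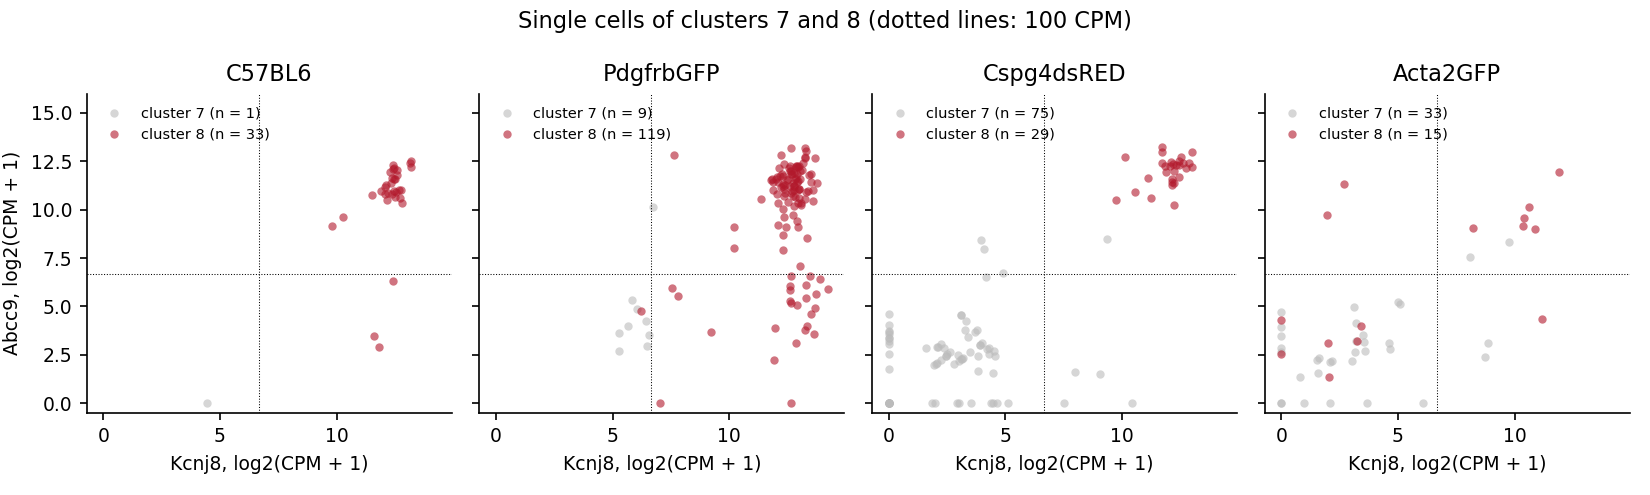
Abcc9 against Kcnj8 in each cell of clusters 7 and 8, as log2(CPM + 1), with 1 panel per strain and coloured by cluster. Most cluster 8 cells lie at the upper right (80.6% with both at 100 CPM or more), Acta2GFP cells spread towards the lower left, and 88.98% of cluster 7 cells have neither at 100 CPM.

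In the smooth-muscle-like cluster 7, 4 cells (3.39%) had both genes at 100 CPM or more, 6 (5.08%) Kcnj8 only, 3 (2.54%) Abcc9 only and 88.98% neither. In cluster 6 these numbers were 2, 4, 4 and 29 of 39 cells, and its 3 C57BL6 cells gave 1 with Kcnj8 only and 2 with neither. Among fibroblasts 72 of 926 (7.78%) were at 100 CPM or more for Kcnj8 and 72 for Abcc9, with 22 for both. Of the fibroblasts at 100 CPM or more for Kcnj8, 30.6% were so for Abcc9. Cluster 3, with the highest Abcc9 of the fibroblast clusters, had 9 cells with both, 12 with Kcnj8 only and 15 with Abcc9 only, and 76 cells (67.9%) with neither. Cluster 5 had 0 with both, 15 with Kcnj8 only and 5 with Abcc9 only, and 93.2% with neither.

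Many fibroblasts had low Kcnj8 counts, and their share is given by plate as well. A Kcnj8 count was present in 67.9 ± 22.4% of fibroblasts over the 4 strains, against 96.7 ± 6.67% of cluster 8 cells, and an Abcc9 count in 59.1 ± 17.1% against 99.6 ± 0.840%. Thinned to 50000 counts a cell, which left out 2 cells, the Kcnj8 shares were 37.5% and 88.3% and the Abcc9 shares 25.7% and 91.2%. At 100 CPM or more they were 8.11% and 86.5% for Kcnj8 and 11.05% and 80.6% for Abcc9. Most fibroblasts with a count were thus below 100 CPM.
C57BL6 fibroblasts came from 2 large plates. On plate heart_203s, which also held the 33 C57BL6 cells of cluster 8, a Kcnj8 count was present in 81.5% of fibroblasts (95% Wilson interval 76.7 to 85.5%). On plate heart_316s, which held 0 cells of cluster 8, it was present in 20 fibroblasts (7.97%, 5.22 to 11.99%). The median depth was 340490.5 counts on the former and 182819 on the latter, and after thinning to 50000 counts the shares were 35.96% and 5.18%. The intervals cover counting of cells on 1 plate each, and with no spread between plates the difference was not tested.
The share was 98.7% on heart_320s (all PdgfrbGFP cells of cluster 8), 69.2% on heart_517s (29 cells) and 55.8% on heart_683s (15 cells), each plate holding 1 other strain. For Abcc9 it was 54.1% on heart_203s and 14.3% on heart_316s (36 cells, 10.5 to 19.2%), and 57.7 to 74.6% on the other 3. Wells that shared both a plate row and a plate column with cluster 8 cells had a Kcnj8 count in 87.2% of heart_203s fibroblasts, wells that shared one of them in 72.6% and wells that shared neither in 1 of 8. On heart_683s the shares were 66.7%, 56.5% and 33.3%, and on heart_320s 99.2% and 98.3% for both and one. The Abcc9 shares were 56.9%, 49.3% and 2 of 8 on heart_203s and 69.7%, 68.1% and 66.7% on heart_683s, and for both and one they were 81.5% and 67.5% on heart_320s and 69.2% and 46.2% on heart_517s. Fibroblasts at 100 CPM or more for Kcnj8 had no single direction, at 10.4%, 6.85% and 0 of 8 on heart_203s, 8.40% and 5.13% on heart_320s, 0 of 13 and 1 of 13 on heart_517s, and 9.09%, 13.04% and 33.3% on heart_683s. The rank correlation of a fibroblast well's Kcnj8 count with the summed cluster 8 counts of its row and column was 0.54, 0.65, 0.32 and 0.42 on the 4 plates with cluster 8 cells, in the order heart_203s, heart_320s, heart_517s and heart_683s. For Abcc9 it was 0.16, 0.54, 0.10 and 0.24, and in wells of clusters 6 and 7 the Kcnj8 value was 0.51 on heart_517s and 0.43 on heart_683s. The part of wells in the same row or column in these low counts was not tested, so a share of fibroblasts with any count is not read as the share that express the gene.

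**Figure D4:**
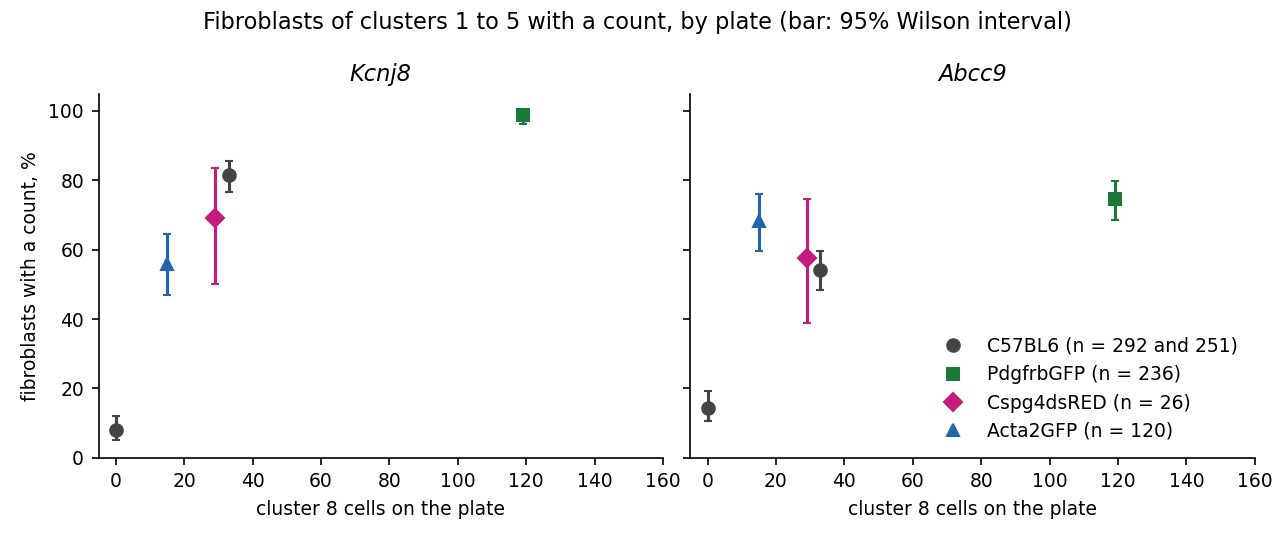
Percentage of fibroblasts with a count of Kcnj8 or Abcc9 on each of 5 plates, with 95% Wilson intervals, beside the number of cluster 8 cells on the plate. The plate without cluster 8 cells lies lowest, at 7.97% and 14.3%, and heart_320s with the most such cells highest, at 98.7% and 74.6%.

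Fibroblasts at 100 CPM or more were seen on the plate without cluster 8 cells as well. On heart_316s 9 fibroblasts (3.59%) reached this level for Kcnj8, at 375 to 2431 CPM, and 6 for Abcc9, at 130.7 to 2203 CPM. No cell was among both. Of the 9 cells with Kcnj8, 8 had 0 Abcc9 counts and 1 had 7, and of the 6 cells with Abcc9, 5 had 0 Kcnj8 counts and 1 had 1. These few cells held 98.3% of the Kcnj8 counts and 96.1% of the Abcc9 counts in fibroblasts of that plate. Such cells held 61.3 to 95.3% of the Kcnj8 fibroblast counts on the other 4 plates with more than 1 fibroblast, and the 1 fibroblast of plate heart_204s, which held 0 cells of cluster 8, stood at 261.7 CPM. The summed Kcnj8 level of C57BL6 fibroblasts was 25.8 CPM on heart_316s and 43.8 CPM on heart_203s. With only the heart_316s cells as C57BL6 fibroblasts, a choice made after the data were seen, both genes passed against cluster 8.

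**Figure D5:**
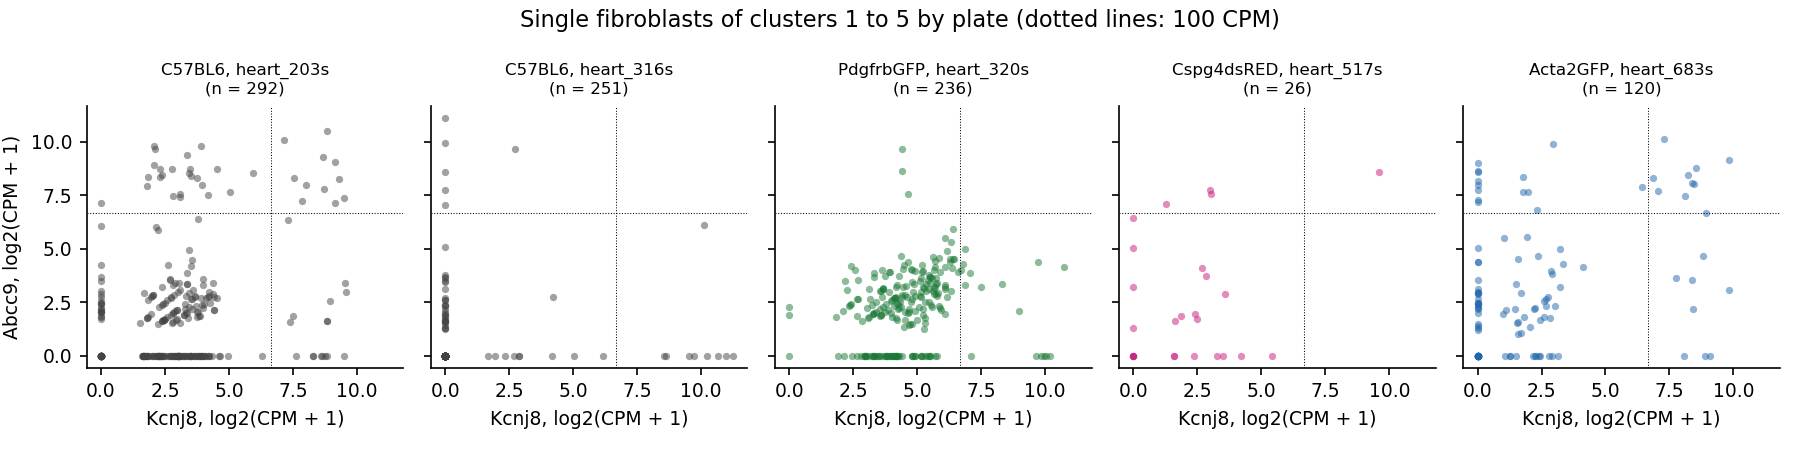
Abcc9 against Kcnj8 in each fibroblast, as log2(CPM + 1). Cells at 100 CPM or more for 1 gene only (50 for Kcnj8 and 50 for Abcc9) outnumber the 22 cells with both, and 804 have neither at that level.

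Genes with the most similar pattern were named by the Pearson correlation of log2(CPM + 1) over the 27 sums, among 10324 genes with a mean of 10 CPM or more. Among the 10 genes most like Kcnj8 were Vtn (0.896), which encodes vitronectin, Gper1 (0.889), a G protein-coupled estrogen receptor, Iqsec3 (0.873), the PDGF receptor Pdgfrb (0.863), Colec11 (0.849), Rab37 (0.843), Sept7 (0.827), Tspan15 (0.824) and Lin7a (0.822). Most like Abcc9 were Cog7 (0.838), Iqsec3 (0.835), Lin7a (0.823), Ctsc (0.821), Steap4 (0.765), Rab37 (0.765), Dtx3 (0.763), Apold1 (0.758), Sept7 (0.757) and Art3 (0.751). Iqsec3, Lin7a, Rab37 and Sept7 were on both lists. Abcc9 itself was at place 26 for Kcnj8 (r = 0.750) and Kcnj8 at place 11 for Abcc9. The order was not firm, since 3 of the 10 genes for Kcnj8 were shared with a rank correlation and 1 of 10 with the 10 sums of clusters 6 to 8 alone.
Of these genes Colec11, a collectin, stood at 1976 ± 381 CPM in cluster 8 and 32.3 ± 42.7 CPM in cluster 7 of the 3 strains with both. Tspan15, a tetraspanin, stood at 387 ± 311 and 1.15 ± 0.964 CPM. These levels took part in the choice of the genes and were not tested. Over all strains Gper1 stood at 248.2 ± 33.99 (n = 4) and 6.43 ± 4.98 CPM (n = 3), and Vtn at 3684 ± 1226 and 272.6 ± 277.8 CPM.

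The 3 protein-coding genes on each side of the chromosome 6 pair did not share the pattern. Spx, Gys2 and Sult6b2 were at 0 in cluster 8, and St8sia1 stood at 0.264 ± 0.200 CPM. Ldhb, a lactate dehydrogenase subunit, stood at 450 ± 236.7 CPM in cluster 8 and 352 ± 173.7 CPM in cluster 7. It was higher in cluster 8 than in fibroblasts (116.9 ± 22.3 CPM, log2 fold change 2.02, SE 0.48, adjusted p = 0.0287, edgeR) but not shown to differ from cluster 7 (0.06, adjusted p = 0.998, edgeR). Cmas, which activates sialic acid, stood at 44.03 ± 31.2 CPM in cluster 8 and did not pass in either comparison. Around Kcnj11 and Abcc8, Ush1c and Myod1 were at 0 in cluster 8, Abcc6 stood at 0.0678 ± 0.136 CPM, Otog at 0.0747 ± 0.149 CPM, Ccdc114 at 2.21 ± 3.41 CPM and Nomo1 at 12.4 ± 15.1 CPM.

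Other genes that can accompany or steer the channel were taken from lists and read by counts against the 0.0843% of genes higher and 0.110% lower in cluster 8 against cluster 7. None of the 13 other inward rectifier pore genes was tested there, since none passed the filter on low counts. In cluster 8 none exceeded 1.76 CPM in any strain (Kcnj5 in C57BL6), and 7 were at 0. Kcnj2, the classical inward rectifier of muscle, stood at 0.050 ± 0.0866 CPM in cluster 8 and 14.8 ± 23.8 CPM in cluster 7, and Kcnj12 at 0 and 9.60 ± 16.6 CPM. Of the 9 other ABCC transporters 4 were tested and 0 passed, with a median log2 fold change of -0.97 beside 0.18 for all genes. Abcc5, a nucleotide exporter, stood at 10.3 ± 10.0 and 40.7 ± 28.7 CPM, and Abcc1, a glutathione conjugate exporter, at 8.26 ± 12.6 and 10.1 ± 12.4 CPM.
Among 15 other potassium channel genes of vascular muscle, 6 were tested against cluster 7 and 0 passed, with a median of -0.41. Kcnmb1, the β1 subunit of the calcium-activated BK channel, stood at 182.4 ± 96.99 CPM in cluster 8 and 318 ± 56.2 CPM in cluster 7 (adjusted p = 0.953, edgeR). The voltage-gated channel gene Kcna5 stood at 18.5 ± 21.6 and 193.3 ± 185.6 CPM (adjusted p = 0.722, edgeR). Against fibroblasts, where 2.34% of genes were higher and 4.26% lower, Kcnmb1 was higher (log2 fold change 7.49) and Kcnn3, a small-conductance calcium-activated channel, lower (-6.71).

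The cyclic nucleotide side, whose kinases open the vascular channel, had 32 genes, of which 27 were tested against cluster 7 and 0 passed, with a median of -0.31. Gucy1a1, a subunit of the nitric oxide receptor guanylate cyclase, stood at 1328 ± 240.7 CPM in cluster 8 and 1951 ± 246.4 CPM in cluster 7. Gnas, the stimulatory G protein α subunit, stood at 1103 ± 479 and 1242 ± 581 CPM. Against fibroblasts 5 of 29 rose and 4 fell, where 2.34% of all genes were higher and 4.26% lower. Those that rose were Gucy1a1 (3.58), Gucy1b1 (4.23), the adenylate cyclases Adcy3 (2.23) and Adcy6 (3.94) and the kinase A subunit Prkar1a (1.00), beside a median of 0.12 for all genes. Among the genes that fell were the cyclase Adcy7 (-5.53), the phosphodiesterase Pde4d (-6.29) and the VIP receptor Vipr2 (-7.48).
The list drawn up for the Gq and protein kinase C side, which closes the channel, had 22 genes. A place in it, as for P2ry14, does not show that a receptor signals through Gq. Of these genes 13 were tested against cluster 7 and 0 passed, with a median of 0.89. Ednra, an endothelin receptor, stood at 1145 ± 540 and 604 ± 291.4 CPM, and P2ry14, a UDP-sugar receptor, at 420 ± 447 and 77.8 ± 93.3 CPM. Against fibroblasts 4 of 14 rose and 0 fell, with log2 fold changes of 4.49 for Ednra, 8.63 for the endothelin receptor Ednrb, 2.67 for the angiotensin receptor Agtr1a and 8.43 for P2ry14.

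Voltage-gated calcium channels, which close when the membrane hyperpolarises, had 7 of 11 genes tested against cluster 7 and 0 passed, with a median of 0.40. Cacnb3 stood at 158.6 ± 223.8 and 107.3 ± 67.3 CPM, and Cacna2d1 at 57.8 ± 58.9 and 122.4 ± 87.4 CPM. Against fibroblasts the L-type pore Cacna1c was higher (2.61) and the T-type pore Cacna1g lower (-6.06). Of 17 adenylate and energy enzymes, which set the nucleotide ratio that the channel reads, 12 were tested against cluster 7. Ckb, the brain-type creatine kinase, was lower in cluster 8, at 201.7 to 303 CPM in those strains against 1282 to 1624 CPM (log2 fold change -2.61, SE 0.45, adjusted p = 0.0455, edgeR), and the list's median was -1.28. Ldha, a lactate dehydrogenase subunit, stood at 609 ± 170.9 and 538 ± 201.2 CPM. Against fibroblasts Ldhb rose and the adenylate kinase Ak1 (-5.03) and the hexokinase Hk2 (-7.09) fell.
Of 7 anchoring and caveolar genes 6 were tested against cluster 7 and 0 passed, with a median of -1.16. Cav1, the caveolin that shapes caveolae, stood at 418 ± 421 and 1561 ± 498 CPM (adjusted p = 0.444, edgeR), and Cavin1 at 355 ± 223.7 and 972 ± 367 CPM (adjusted p = 0.577, edgeR). Against fibroblasts Cav2 was higher (2.56). In the fit without a block, Kcnj8 was the one gene among the members and these lists that passed as higher in cluster 8 than in cluster 7.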

How the data were processed

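Smart-seq2 libraries were made from single mouse heart cells, and per the labels each cell carries a strain and a cluster from pagoda2. The authors trimmed reads with Trim Galore, aligned them with TopHat2 to GRCm38 (mm10) and deposited raw counts per gene from featureCounts, after removing doublets with samtools and cells with very many genes, as their methods and the submitters' processing notes give. Annotation release and strand setting are not given in the sources used here. The 92 ERCC spike-ins (1.82% of counts) stayed out of library sizes. No further doublet caller was run.

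The members and all lists were chosen with earlier results of these data known. Counts were summed over cells per cluster and strain (minimum 3 cells). edgeR 4.0.16 (quasi-likelihood, TMM, filterByExpr with a minimum count of 10, Benjamini-Hochberg, threshold 0.05) was run in R 4.3.3 with limma 3.58.1, over all genes that passed, and tested on simulated data. Kcnj8 and Abcc9 passed this filter in every comparison, Kcnj11 and Abcc8 in none. SE was taken as the size of the log2 fold change over √F. The authors' methods tested cells as replicates, which was not done here.

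Genes were named as members, as the 10 most correlated with Kcnj8 and with Abcc9, as 3 neighbours on each side, as up to 4 genes per list past the threshold against cluster 7 (otherwise the 2 highest), or as markers. Other genes are named as those of a list that passed against fibroblasts, after their values were seen. Some genes that these rules name are not reported here. Strain pairs the sums: same-strain deviations of cluster 8 correlated at 0.10 to 0.15 against fibroblasts, 0.08 to 0.12 against cluster 7 and 0.01 to 0.07 against cluster 6. For cluster 7 against fibroblasts they correlated at 0.05 to 0.12. The best match was another strain for Acta2GFP against cluster 6 and for Cspg4dsRED in the last comparison.

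Alternatives were RLE and ERCC scaling, no filter, DESeq2 1.42.0, limma-voom, a strain block, all sums in 1 fit, mean CPM per cell, a minimum of 5 cells, leaving out each strain and, added after the data were seen, fibroblasts of 1 plate, a share of cells at 100 CPM and sums without the cell with the most counts.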

Additional observations from a re-analysis of the deposited data

Results flagged for a closer look

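In 22 groups of 4 strains, 4 had a strain whose gap to the nearest of the others exceeded Dixon's 95% critical value for 4 samples, and chance alone marks about 1 in 20 groups. The share of cluster 8 cells with a Kcnj8 count was lowest in Acta2GFP, at 86.7% against 100% in the other 3 strains. The share with an Abcc9 count was lowest in PdgfrbGFP, at 98.3% against 100%. With 3 strains tied at 100%, a single cell without a count in the other strain exceeds the critical value, so the rate of 1 in 20 does not apply to these shares. The Abcc9 level of fibroblast cluster 4 was lowest in PdgfrbGFP, at 5.03 CPM against 46.5 to 53.3 CPM. The ratio of Kcnj8 to Abcc9 per kb in clusters 2 to 5 was highest in PdgfrbGFP, at 15.6 against 2.12 to 3.29. The 3.29, in Cspg4dsRED, rested on 1 cell and was 0.332 without the cell with the most Kcnj8 counts.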

How the results depend on the processing

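Kcnj8 and Abcc9 were higher in cluster 8 than in cluster 7, cluster 6 and fibroblasts under every alternative run, and past the threshold in all 14 against fibroblasts. Against cluster 7, Kcnj8 missed the threshold with ERCC scaling (5.18, adjusted p = 0.144) and limma-voom (6.31, adjusted p = 0.322), and Abcc9 passed with no filter (5.31), DESeq2 (4.62), the strain block (5.91) and mean CPM (5.57). Leaving out 1 strain gave 5.47 to 6.32 for Kcnj8 and 4.24 to 7.33 for Abcc9. Against cluster 6, ERCC scaling (4.32 and 6.07, adjusted p = 0.252 and 0.145) and limma-voom (5.70 and 7.65, adjusted p = 0.785 and 0.692) lost both, and leaving out 1 strain gave 4.48 to 6.20 and 6.92 to 8.40. For cluster 7 against fibroblasts the sign turned with ERCC scaling (-0.42 for Kcnj8, -1.06 for Abcc9, beside a median of -0.76 for all genes, above which Kcnj8 lay) and for Abcc9 with the strain block (-0.47) and without PdgfrbGFP (-1.82, range -1.82 to 1.37). The block changed no other call of a member. The cause was not tested.

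Of the genes tested against cluster 7, 0.379% passed with RLE, 0% with ERCC (edgeR, 4.56% at an unadjusted p under 0.05), 0.855% with no filter, 3.51% with DESeq2, 1.31% with limma-voom, 0.691% with the strain block, 0.362% with all sums in 1 fit, 0.379% with mean CPM and 0 to 0.987% without 1 strain, beside 0.194%. Against cluster 6 the shares were 0.333%, 0.0277%, 0.725%, 3.36%, 1.68%, 1.43%, 1.13%, 0.361% and 0.0103 to 1.63% in that order, beside 0.157%. Against fibroblasts they were 2.46% with no filter (684 genes of 27750, against 887 of 13445), 12.9% with DESeq2, 12.2% with limma-voom, 3.75% with the block, 1.46% with all sums and 1.47 to 7.68% without 1 strain, beside 6.60%. For cluster 7 against fibroblasts they were 2.69% with ERCC, 13.3% with DESeq2, 9.22% with limma-voom, 7.77% with mean CPM and 1.03 to 5.21% without 1 strain, beside 4.52%.

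Shares of cluster 8 cells moved from 96.7% to 88.3% (thinned), 86.7% (5 or more counts) and 86.5% (100 CPM) for Kcnj8 and from 99.6% to 91.2%, 86.2% and 80.6% for Abcc9. Shares of fibroblasts moved from 67.9% to 37.5%, 24.8% and 8.11% and from 59.1% to 25.7%, 18.2% and 11.05%. Kcnj8 in C57BL6 fibroblasts was 25.8 CPM on heart_316s and 43.8 CPM on heart_203s. Of the 10 genes most like Kcnj8, 3 were shared with a rank correlation and 1 with clusters 6 to 8 only. A minimum of 5 cells left 1 strain against cluster 6 and was not run there. In the other comparisons it left out no sum and repeated the main fit. Leave-one-out fits with 2 strains a side rest on few degrees of freedom, and Kcnj11 and Abcc8 gave no fold change under any alternative.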
